A study of Mus musculus with 8 samples.

Results

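The pyruvate dehydrogenase complex and the enzymes that switch it off and on were followed in brown adipose tissue of mice with and without the histone demethylase Lsd1, whose gene symbol is Kdm1a. The 10 genes were chosen by symbol: 5 encode the complex (Pdha1, Pdhb, Dlat, Pdhx and Dld), 4 its kinases (Pdk1 to Pdk4) and 1 a phosphatase (Pdp1). They are 10 of 23372 genes in the count table, and all 10 passed the filter on low counts. All mice were on a C57BL/6 N background and 10 weeks old. The 4 control mice (replicates 511, 514, 517 and 518) carried floxed Lsd1 alleles, and the 4 knockout mice (replicates 512, 513, 515 and 516) carried them together with Cre recombinase driven from the promoter of Ucp1, the uncoupling protein gene of brown adipocytes. No Cre was named for the controls, so deletion of Lsd1 and presence of Cre cannot be told apart. By this design other cells of the tissue, which do not use that promoter, should retain Lsd1. Which cells kept it was not tested.

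Pyruvate dehydrogenase is the gate between glycolysis and the mitochondrial oxidation of glucose, and turns pyruvate into acetyl-CoA without a way back. Its E1 enzyme, built from alpha and beta subunits, removes carbon dioxide with the help of thiamine pyrophosphate, E2 passes the acetyl group to coenzyme A on a lipoyl arm, and E3 reoxidises that arm, held in place by the E3-binding protein. Pyruvate dehydrogenase kinases phosphorylate the E1 alpha subunit and shut the complex, and the phosphatases reopen it. In brown fat the acetyl-CoA feeds both heat production and fatty acid synthesis.

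The libraries held 33011022 to 38756920 counts over all rows of the table. Levels are given as CPM (a gene's count relative to all counts of its library) scaled by TMM factors, and adjusted p-values come from edgeR's quasi-likelihood test over all 14178 genes that passed the filter, with a call at an adjusted p under 0.05. Kdm1a itself lay between 33.3 and 36.9 CPM in controls and between 12.2 and 14.0 CPM in knockouts (log2 fold change -1.43, edgeR adjusted p = 2.66e-05). Ucp1 averaged 4481 ± 1200.2 CPM in controls and 1377 ± 161 CPM in knockouts (SD, n = 4 each). All 8 brown adipocyte markers were detected, with a summed level of 7710 to 10705 CPM in controls and 4712 to 5274 CPM in knockouts, and 5 of the 8 were called lower. The sum over 7 markers of all fat cells was lower in every knockout library too, at 13879 to 15815 CPM against 19178 to 23922 CPM, with 5 of 7 called lower. Markers of skeletal muscle, a tissue that itself holds the complex and its kinases, were summed over 15 of 15 genes and lay between 355 and 7726 CPM in controls and between 8753 and 19341 CPM in knockouts, with no overlap; 1 of the 15 was called higher, and 0 of them were at 0 in all libraries. The summed level of 5 macrophage markers was likewise higher in every knockout library, at 89.7 to 140.5 CPM against 50.7 to 84.2 CPM, with 4 of 5 called higher. In tissue RNA, fewer cells of a type and less RNA per cell cannot be told apart. The part of fat cell, muscle and macrophage RNA in the results below was not tested beyond the fit named with them. That fit adds the mean log2 CPM of the 15 muscle markers as a covariate (the muscle score). Since summed muscle markers did not overlap between the groups, it cannot fully separate muscle RNA from genotype, whether a call is kept or lost.

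Transcripts of most parts of the complex were lower in the knockout, while the kinase Pdk3 and the phosphatase Pdp1 were higher. Of the 10 genes, 6 fell (Pdhb, Dlat, Pdhx, Dld, Pdk1 and Pdk2), 2 rose (Pdk3 and Pdp1) and 2 were not called (Pdha1 and Pdk4). The test called 34.4% of all tested genes, 18.9% lower and 15.4% higher, so both directions were common in this tissue. The median log2 fold change of the 10 genes was -0.41, beside -0.01 over all genes tested. For 7 of the 10 genes control and knockout values were fully apart, 5 of them lower and 2 higher. Such separation held for 35.5% of all tested genes, 19.7% lower and 15.7% higher in every knockout library. The authors' deposited table gives a false discovery rate under 0.05 for 7 of the 10 genes, leaving out Pdha1, Pdk4 and Pdk2.

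**Figure D1:**
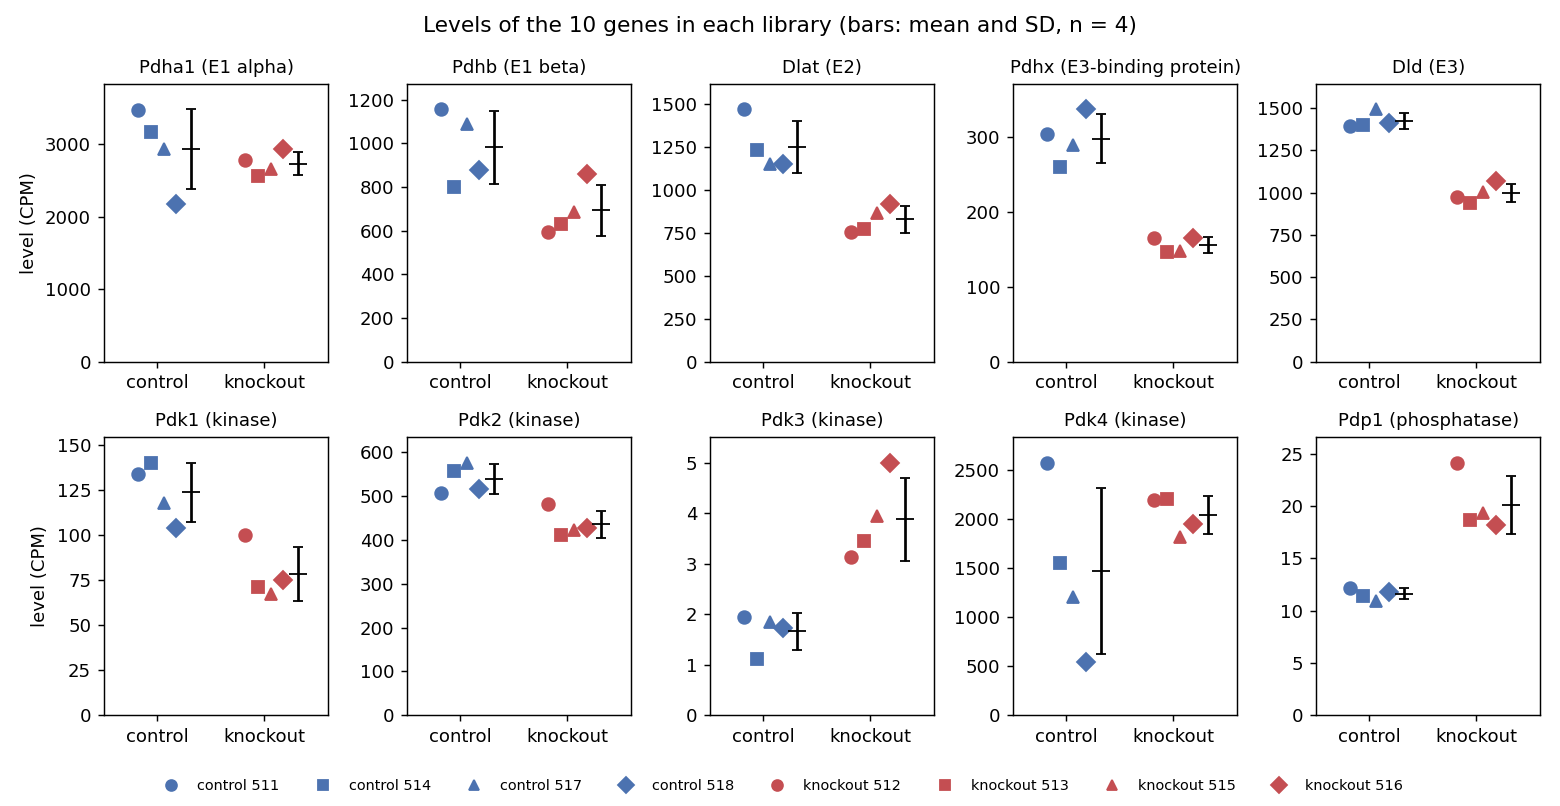
Level of each of the 10 genes (CPM, linear axes from 0) in the 4 control and 4 knockout libraries, with the mean and SD of each group. Dlat, Pdhx, Dld, Pdk1 and Pdk2 are lower and Pdk3 and Pdp1 higher in every knockout library, and Pdk4 spans 542 to 2581 CPM among controls.

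**Figure D2:**
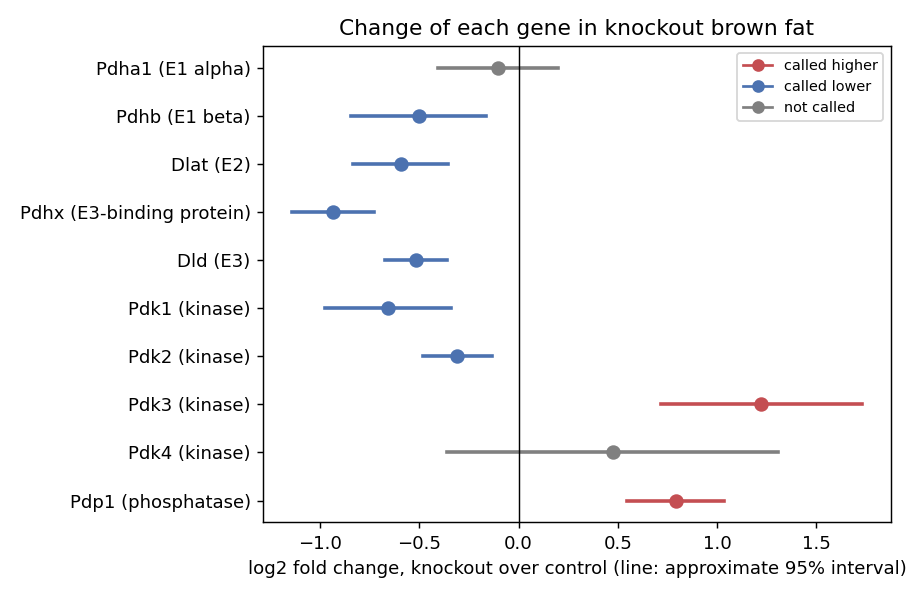
Log2 fold change of each gene, knockout over control, with an approximate 95% interval from edgeR. The intervals of Pdha1 and Pdk4 include 0.

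Within the complex, 4 of 5 subunit genes fell and 0 rose. The steepest fall was that of Pdhx, the E3-binding protein that anchors E3 to the core (mm10 chromosome 2, 103021057 to 103073513, minus strand). Its level was 304, 259, 289 and 337 CPM in control replicates 511, 514, 517 and 518, and 164, 146, 147 and 165 CPM in knockout replicates 512, 513, 515 and 516. Every knockout library was far under the lowest control. The means were 297 ± 32.4 CPM (SD, n = 4) and 155 ± 10.5 CPM (SD, n = 4), a fall to 0.523 of the control level (edgeR adjusted p = 0.000286, log2 fold change -0.94 with an SE of 0.0921).

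Dlat encodes E2, the lipoyl-bearing acetyltransferase that forms the core of the complex (chromosome 9, 50634633 to 50659780, minus strand). It measured 1473, 1232, 1153 and 1153 CPM in controls and 757, 772, 869 and 920.5 CPM in knockouts. The groups did not overlap, and the highest control was replicate 511. Knockout Dlat was 33.8% lower, at -0.59 in log2 units (edgeR adjusted p = 0.00326, SE 0.106).

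Dld encodes E3, the flavin enzyme that pyruvate dehydrogenase shares with the 2-oxoglutarate and branched-chain complexes and with the glycine cleavage system (chromosome 12, 31331562 to 31351437, minus strand). Its controls were tight, at 1394, 1400.2, 1494 and 1410 CPM, and its knockouts lay at 971, 939.9, 1006 and 1065 CPM. It had the smallest spread of the 5 subunits relative to its mean in both groups, with means of 1425 ± 46.7 and 996 ± 53.9 CPM (SD, n = 4 each). Dld fell by 0.52 in log2 units (edgeR adjusted p = 0.000958, SE 0.0698).

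The E1 subunits gave different calls, although the difference between them was not tested. Pdhb, the beta subunit (chromosome 14, 8165991 to 8172992, minus strand), was at 1158, 802, 1089 and 878 CPM in controls and 593, 629.7, 687 and 861 CPM in knockouts. Knockout 516 lay above control 514, so the groups overlapped. The fall of 0.50 in log2 units (edgeR adjusted p = 0.0307, SE 0.151) was the call closest to the threshold among the 10 genes, and it ended when control 511, control 517, knockout 512, knockout 513 or knockout 515 was left out (edgeR adjusted p = 0.0666, 0.0724, 0.0746, 0.0829 and 0.0706). It also ended with upper quartile factors (log2 fold change -0.40, edgeR adjusted p = 0.076) and with library sizes alone (-0.30, edgeR adjusted p = 0.128). In the fit with the muscle score the log2 fold change was -0.60 with a wider SE of 0.196 (edgeR adjusted p = 0.0551).

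Pdha1, the alpha subunit and the target of the kinases (chromosome X, 160122219 to 160138336, minus strand), was the most abundant of the 10 genes per kilobase of transcript. It measured 3465, 3164, 2935 and 2178 CPM in controls and 2774, 2558, 2662 and 2926 CPM in knockouts. All knockout values lay inside the control range. The log2 fold change was -0.10 (95% interval -0.41 to 0.20, edgeR adjusted p = 0.577). That interval overlaps those of Pdhb (-0.84 to -0.16), Dlat (-0.83 to -0.36) and Dld (-0.67 to -0.36). It does not overlap that of Pdhx (-1.14 to -0.73), and no difference between subunits was tested. With library sizes alone the log2 fold change of Pdha1 was 0.098. The test of Pdha1 shares reads with a neighbour: 21.2% of the exon bases of its transcript (603 of 2848) lie opposite exons of Map3k15, a kinase gene on the other strand, and the counting did not use strand. Map3k15, looked at after its value was seen, was the gene with the profile closest to that of Pdha1 over the 8 libraries (root mean square difference of centred log2 CPM 0.0256 among 10749 genes of at least 5 CPM on average), with 500.2 to 758 CPM. Reads of the pair cannot be told apart in the shared stretch. The other 9 genes had 0 exon bases opposite another gene in the GENCODE vM21 annotation. For Pdp1 the transcript matched there has 2588 exon bases and the counted one 4226, so part of the counted stretch was not checked.

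Pdha1 and Pdk3 are on the X chromosome, and the Y-linked gene Ddx3y was detected in every library at 96.2 to 123.9 CPM, so no library was without Y-chromosome transcripts.

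To show the sequences in front of the 4 subunits that fell and of the kinase that rose, the 250 bases before the start of Pdhx (chr2:103073514-103073763, minus strand), Dlat (chr9:50659781-50660030, minus strand), Pdhb (chr14:8172993-8173242, minus strand), Dld (chr12:31351472-31351721, minus strand) and Pdk3 (chrX:93832151-93832400, minus strand) are given 5′ to 3′ from RefSeq (GRCm38.p6), with the start as RefSeq places it. Capitals mark GC boxes, the SP1 letters GGGCGG, and CCAAT boxes, each on either strand.
Pdhx: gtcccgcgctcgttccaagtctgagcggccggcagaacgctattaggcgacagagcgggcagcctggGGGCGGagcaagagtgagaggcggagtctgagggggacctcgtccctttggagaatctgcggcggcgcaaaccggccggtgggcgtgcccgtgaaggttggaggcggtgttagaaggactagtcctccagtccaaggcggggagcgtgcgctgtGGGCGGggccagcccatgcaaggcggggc
Dlat: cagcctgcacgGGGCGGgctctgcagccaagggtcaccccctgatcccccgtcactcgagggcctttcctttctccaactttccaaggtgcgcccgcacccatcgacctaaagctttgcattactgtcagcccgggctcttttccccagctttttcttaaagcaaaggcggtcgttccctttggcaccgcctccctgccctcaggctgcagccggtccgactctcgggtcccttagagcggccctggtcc
Pdhb: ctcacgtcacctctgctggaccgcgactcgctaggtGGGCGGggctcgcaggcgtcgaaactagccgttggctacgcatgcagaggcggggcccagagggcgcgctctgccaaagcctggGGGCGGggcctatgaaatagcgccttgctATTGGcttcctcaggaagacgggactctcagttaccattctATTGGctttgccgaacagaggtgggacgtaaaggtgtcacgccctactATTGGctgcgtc
Dld: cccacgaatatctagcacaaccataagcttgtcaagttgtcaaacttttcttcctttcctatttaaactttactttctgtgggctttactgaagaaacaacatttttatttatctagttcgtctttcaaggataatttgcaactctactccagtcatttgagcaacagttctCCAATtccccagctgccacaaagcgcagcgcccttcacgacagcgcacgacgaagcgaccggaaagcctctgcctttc
Pdk3: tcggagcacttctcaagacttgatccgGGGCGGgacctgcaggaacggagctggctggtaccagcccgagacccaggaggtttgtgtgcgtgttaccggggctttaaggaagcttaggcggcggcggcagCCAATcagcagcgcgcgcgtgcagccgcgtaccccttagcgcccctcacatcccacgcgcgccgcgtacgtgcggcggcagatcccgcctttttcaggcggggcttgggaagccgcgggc

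A promoter sequence was found for 9 of the 10 genes. The window held 2 GC boxes in Pdhx, 1 in Dlat, 2 in Pdhb, 0 in Dld and 1 in Pdk3, and 5 of the 9 genes had at least 1 (Pdk1 being the fifth), where 32.7% of 32851 promoter windows of this length do. CCAAT boxes stood in 5 of 9 windows against 33.8% of all, with 3 each in Pdhb and Pdk2 and 1 each in Dld, Pdk3 and Pdk4. The GC box and the CCAAT box thus appeared in front of genes that fell and in front of Pdk3, which rose. No window of the 9 held the oestrogen-related receptor element TCAAGGTCA (0.387% of all windows), the cAMP response element TGACGTCA (1.55%) or the ETS letters CCGGAAG (6.91%), and 1, that of Pdk2, held the E-box CACGTG (6.02%). The NRF1 motif was in 0 of the 9 windows and in 0.782% of all. None of these motifs contains another, both strands were searched, and a match describes the letters only.

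Among the 4 kinases, which differ in abundance and in the tissues that favour them, 2 fell, 1 rose and 1 was not called. Pdk2, the kinase found in most tissues (chromosome 11, 95026258 to 95041371, minus strand), was at 506, 557, 576 and 516 CPM in controls and 481, 412, 421 and 427 CPM in knockouts. The groups came close without overlapping, with knockout 512 nearest to the controls. The fall of 0.31 in log2 units (edgeR adjusted p = 0.0155, SE 0.078) is 19.2%. That call ended without knockout 513 (edgeR adjusted p = 0.0524), with upper quartile factors (0.0787), with library sizes alone (0.299) and in the fit with the muscle score (0.0897), and the authors' deposited table gives a false discovery rate of 0.0809.

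Pdk1, a kinase gene known to respond to low oxygen through Hif1a (chromosome 2, 71873272 to 71903858, plus strand), measured 134, 140.2, 118 and 104 CPM in controls and 100.1, 71.2, 67.2 and 75.1 CPM in knockouts. Knockout 512 again stood highest of its group and just under control 518. Pdk1 fell by 0.66 in log2 units (edgeR adjusted p = 0.00739, SE 0.141). Knockout 512 also had the highest summed muscle level. Among the controls Pdk1 was highest in replicate 514, where summed muscle was lowest, and lowest in replicate 518, where summed muscle was highest. The part of muscle RNA in the level of Pdk1 was not tested beyond the fit with the muscle score. In the fit with the muscle score Pdk1 was at -0.57 with a wider SE of 0.188, and was not called (edgeR adjusted p = 0.0593).

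Pdk3 was the rarest of the 10 genes and had the largest fold change (chromosome X, 93764616 to 93832095, minus strand). It held 28 to 49.5 counts per control library and 77.5 to 134.5 per knockout library. The levels were 1.95, 1.12, 1.85 and 1.73 CPM in controls and 3.13, 3.46, 3.95 and 5.01 CPM in knockouts, with no overlap. This is a 2.34-fold rise (edgeR adjusted p = 0.00377, log2 fold change 1.22 with an SE of 0.225). In the fit with the muscle score Pdk3 was called, at 0.997 (edgeR adjusted p = 0.0396). Summed macrophage markers, set beside Pdk3 after the values were seen, took the same order in the knockouts, at 89.7, 97.1, 110.3 and 140.5 CPM. They were lowest in control 514, as Pdk3 was. The part of macrophage RNA in the rise was not tested. The 3 genes closest in profile to Pdk3 were Pcdh7, a protocadherin gene, Serpinb6a, a protease inhibitor gene, and Wtip, an adaptor protein gene. Over the 8 libraries their root mean square differences from Pdk3 were 0.104, 0.19 and 0.193 in centred log2 CPM.

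Pdk4 is the kinase gene induced in fasting by fatty acids and glucocorticoids (chromosome 6, 5483351 to 5496278, minus strand). Its controls were spread over 2581, 1559, 1210.2 and 542 CPM, while the knockouts stood together at 2201, 2208, 1818 and 1957 CPM. Control 511 was above all knockouts and the other 3 controls were under all of them. The means of 1473 ± 851 and 2046 ± 191 CPM (SD, n = 4 each) gave a log2 fold change of 0.47 with a wide interval (-0.36 to 1.31, edgeR adjusted p = 0.349), so a difference was not detectable against the spread of the controls, and a rise of more than 2-fold lies within the interval. The value was 0.89 without control 511 (edgeR adjusted p = 0.0547) and 0.22 without control 518 (0.497). The authors' deposited table gives a log2 fold change of 0.46 and a false discovery rate of 0.388.

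Of the genes known to respond with Pdk4 to fatty acids, 2 are set beside it here, both named after their values were seen. Angptl4, a secreted lipase inhibitor, stood in the same order as Pdk4 among the controls, at 541, 392, 352 and 128 CPM, and at 658, 581, 643 and 739 CPM in knockouts. Its groups did not overlap, and its log2 fold change of 0.89 was not called (95% interval 0.12 to 1.67, edgeR adjusted p = 0.0717). Plin2, a lipid droplet protein, stood in another order, at 1052, 700.3, 1184 and 1986 CPM in the controls, highest in control 518, where Pdk4 was lowest. Its knockouts lay at 376, 458, 521 and 498 CPM, all under the controls. Plin2 was called lower, with a log2 fold change of -1.41 (edgeR adjusted p = 0.00507). Summed muscle markers took another order in the controls, at 5253, 355, 4337 and 7726 CPM, with the highest value in control 518, where Pdk4 was lowest. A relation between these orders was not tested. In the fit with the muscle score Pdk4 was at 0.58 (edgeR adjusted p = 0.448).

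Set per kilobase of transcript, Pdk4 and Pdk2 made up nearly the whole kinase pool. In controls Pdk4 was 74.8%, 62.2%, 55.6% and 38.6% of the summed CPM per kb of the 4 kinases, and in knockouts 73.1%, 76.3%, 72.3% and 73.3%. The shares overlapped, since control 511 lay within the knockout range. Pdk2 took 22.5% to 56.2% in controls and 21.8% to 25.7% in knockouts. Pdk1 was 2.60% to 4.95% in controls and 1.65% to 2.23% in knockouts, without overlap, and Pdk3 was at most 0.326% in every library. Without Pdk4 the kinase sum was 251 to 281 CPM per kb in controls and 199.5 to 236 CPM per kb in knockouts, again without overlap, whereas the full sum overlapped at 410 to 1005 and 733 to 878 CPM per kb. These sums and shares are descriptions and were given no test.

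**Figure D3:**
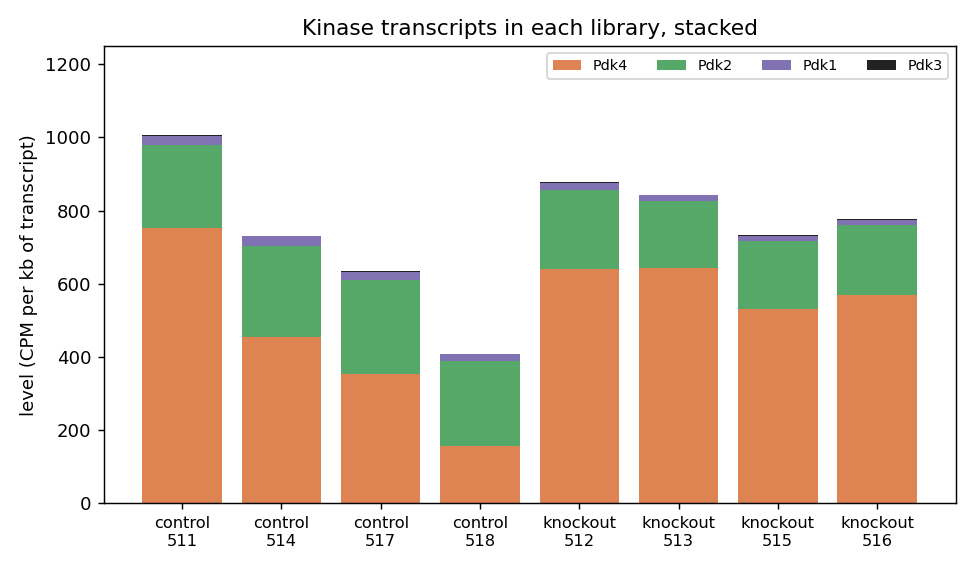
Stacked levels of Pdk4, Pdk2, Pdk1 and Pdk3 in each library, as CPM per kilobase of transcript on an axis from 0. The control bars range from 410 to 1005 and the knockout bars from 733 to 878, and most of the difference between control bars is Pdk4.

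The phosphatases work against the kinases, and Pdp1 is the calcium-stimulated catalytic subunit (chromosome 4, 11958185 to 11966450, minus strand). It measured 12.2, 11.4, 11.0 and 11.8 CPM in controls and 24.1, 18.7, 19.3 and 18.2 CPM in knockouts. The groups were well apart, with knockout 512 the highest. The rise was 1.73-fold (edgeR adjusted p = 0.00101, log2 fold change 0.79 with an SE of 0.108). Pdp1 is abundant in muscle, and the part of muscle RNA in its rise was not tested beyond the fit with the muscle score. In that fit, which cannot fully separate muscle RNA from genotype, the log2 fold change of Pdp1 was 0.72 (edgeR adjusted p = 0.0116). The table holds 3 transcript rows for Pdp1, which held 313, 313 and 305 counts in control 511 and 601.5, 601 and 586 in knockout 512, so the choice of row made little difference.

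The second catalytic subunit and the regulatory subunit of the phosphatase lie outside the 10 genes, and neither rose. Pdp2 fell by 0.54 on the log2 scale, from 63.9 ± 13.4 to 44.0 ± 4.46 CPM (SD, n = 4 each, edgeR adjusted p = 0.0188), a call that ended without knockout 516 and with library sizes alone. Pdpr had a log2 fold change of -0.80 and was not called (edgeR adjusted p = 0.0928). Per kilobase Pdp2 was the more abundant catalytic subunit in every library, at 15.5 to 23.7 CPM per kb in controls and 10.9 to 13.9 in knockouts, where Pdp1 had 2.59 to 2.89 and 4.31 to 5.71 CPM per kb.

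Per kilobase the order of the 10 genes in controls was Pdha1 (1072 ± 201 CPM per kb, SD, n = 4), Pdhb (671 ± 115), Dld (643 ± 21.1), Pdk4 (430 ± 248), Dlat (313 ± 37.8), Pdk2 (241 ± 14.9), Pdhx (119 ± 12.9), Pdk1 (24.2 ± 3.20), Pdp1 (2.74 ± 0.125) and Pdk3 (0.842 ± 0.189). The ranges of Pdhb and Dld, of Dld and Pdk4 and of Pdk4 and Dlat overlapped, and those of the other neighbours did not. In knockouts Pdk4 (596 ± 55.8 CPM per kb) came second after Pdha1 (997 ± 57.6) and ahead of Pdhb (473 ± 81.1) and Dld (450 ± 24.3), and only the ranges of Pdk4 and Pdhb, of Pdhb and Dld and of Dlat (207 ± 19.5) and Pdk2 (194 ± 13.9) overlapped between neighbours.

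Some ratios between the subunits' transcripts were fully apart between the groups, and others overlapped. The ratio of Dlat to Pdha1, per kilobase, was 0.266 to 0.362 in controls and 0.187 to 0.223 in knockouts. That of Dld to Pdha1 was 0.498 to 0.800 and 0.433 to 0.467, also without overlap. The ratio of Pdhb to Pdha1 overlapped, at 0.474 to 0.754 and 0.3997 to 0.550, as did that of Pdhx to Dlat, at 0.330 to 0.468 and 0.271 to 0.348. All 4 ratios are descriptions and were not tested, and those to Pdha1 carry the reads shared with Map3k15.

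The genes closest in profile to Pdhx over the 8 libraries were Thrsp, a lipogenic regulator of fat cells, Mrpl20, a mitochondrial ribosomal protein gene, and Mrap, the accessory protein of the melanocortin receptor, at root mean square differences of 0.0697, 0.0751 and 0.0789 in centred log2 CPM. Their log2 fold changes were -0.96, -0.96 and -0.90. These genes were picked by likeness to Pdhx, so their direction is no separate result.

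Around the complex, 76 genes of its supply, cofactors, sister complexes, regulators and product use were taken from 9 lists, and 73 were tested. Of these 39 fell and 5 rose (Slc16a3, Me2, Slc19a2, Ppm1k and Cpt1a), with a median log2 fold change of -0.40 beside -0.01 for all genes. Over all genes tested 18.9% were called lower and 15.4% higher, and the counts of each list below stand beside the same shares. With library sizes alone, which shifted the median of all genes by 0.199, the counts were 25 lower and 12 higher. Over all 14178 genes tested 930 were then called lower and 4077 higher. The medians of the lists for other pyruvate users and for transcription factors were then above 0. That of the thiamine cofactor list was above 0 in both fits, at 0.16 as reported and 0.37 with library sizes alone. Named below are up to 3 called genes of each list with the smallest p.

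The lipoyl arm of E2 is made by a chain of enzymes that includes iron-sulfur cluster factors, and 10 of its 11 genes fell and 0 rose (median log2 fold change -0.44). Lias, lipoic acid synthase, averaged 94.0 ± 3.22 CPM in controls and 63.0 ± 2.68 CPM in knockouts (SD, n = 4 each), and fell by 0.58 in log2 units (edgeR adjusted p = 0.000359). Iba57, an iron-sulfur cluster assembly factor, fell by 0.69, and Mcat, of the mitochondrial fatty acid synthesis that makes the lipoate precursor, fell by 0.48. The single uncalled gene was Lipt2, at -0.29 (edgeR adjusted p = 0.119). All 10 called genes were lower in every knockout library. With library sizes alone 7 were called lower.

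Among the sister complexes, which use the same E3 and the same kind of lipoyl arm, 5 of 9 tested genes fell and 1 rose (median -0.43). Gcsh, the lipoyl carrier of glycine cleavage, fell by 0.58 (edgeR adjusted p = 0.000493). Ogdh, E1 of the 2-oxoglutarate complex, fell by 0.43, from 4660.4 ± 297 to 3466 ± 92.8 CPM. Bckdha, E1 alpha of the branched-chain complex, fell by 0.62, and B3gnt8 covers 61.7% of its exonic sequence from the other strand. The gene that rose was Ppm1k, the phosphatase that reopens the branched-chain complex, by 0.52 (edgeR adjusted p = 0.0095), and it was named after its value was seen because it was the only riser. Its kinase Bckdk, also named after its value was seen, was at -0.18 and not called (edgeR adjusted p = 0.0636). In the fit with the muscle score Ppm1k was not called (edgeR adjusted p = 0.0525).

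Pyruvate reaches the complex through the mitochondrial pyruvate carrier. Of 10 tested genes of pyruvate supply and entry, 3 fell and 1 rose (median -0.30), where 34.4% of all tested genes were called in either direction. Mpc2, one part of that carrier, averaged 533 ± 61.4 CPM in controls and 317 ± 19.2 CPM in knockouts, and fell by 0.75 in log2 units (edgeR adjusted p = 0.000709). Its partner Mpc1, named after its value was seen, had -0.71 (edgeR adjusted p = 0.051), and 27.9% of its exonic sequence lies opposite another gene. Ldha, the lactate dehydrogenase subunit, fell by 0.68, and Slc16a1, a monocarboxylate transporter, fell by 0.49, a call that ended without knockout 515 and with library sizes alone. The riser, named after its value was seen, was Slc16a3, another monocarboxylate transporter, with 3.53 ± 1.95 and 8.20 ± 1.32 CPM (log2 fold change 1.22, edgeR adjusted p = 0.0463). That call ended when control 511, control 518 or any of the 4 knockouts was left out, and in the fit with the muscle score the value was 0.27 (edgeR adjusted p = 0.549).

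Of 4 genes of other pyruvate reactions, Pcx, pyruvate carboxylase, fell by 0.40 (edgeR adjusted p = 0.0199). Me2, a mitochondrial malic enzyme, which makes pyruvate from malate, rose by 0.60 (edgeR adjusted p = 0.0041). The call of Pcx ended without knockout 513 or knockout 515, with upper quartile factors, with library sizes alone and with the muscle score, and that of Me2 with the muscle score. Thiamine pyrophosphate is the cofactor of E1. The plasma membrane thiamine transporter Slc19a2 rose by 0.72, with 13.4 ± 1.83 CPM in controls and 22.03 ± 1.46 CPM in knockouts (edgeR adjusted p = 0.00178).

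Acetyl-CoA is used by the TCA cycle and by fat synthesis, and 5 of 9 genes of its use fell and 0 rose (median -0.62). Acly, ATP citrate lyase, averaged 5432 ± 1182 CPM in controls and 2394 ± 261 CPM in knockouts, and fell by 1.18 in log2 units (edgeR adjusted p = 0.00104). Crat, carnitine acetyltransferase, fell by 0.67, and Acacb, an acetyl-CoA carboxylase, fell by 0.64.

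Transcription factors known to act on the kinase genes gave 5 lower and 0 higher among 12 (median -0.16). Over all genes the number called lower was 1900 to 2655 with 1 library left out, against 2682 with all libraries. The count for the 12 factors fell whichever library was left out. It was 4 without control 511 or control 514, 3 without knockout 512 and 2 without control 518. It was 1 without control 517, knockout 513, knockout 515 or knockout 516. It was also 1 with upper quartile factors, library sizes alone or a minimum count of 50, and 2 in the fit with the muscle score. Esrra, an oestrogen-related receptor, fell by 0.47 (edgeR adjusted p = 0.00163). Pparg fell by 0.30 (edgeR adjusted p = 0.0279) and Hif1a by 0.28 (edgeR adjusted p = 0.0409), and each of these 2 calls ended in 10 of 18 alternatives, 6 of them with 1 library left out. The calls of Nr3c1, the glucocorticoid receptor, and Srebf1, a lipogenic factor, ended in 11 and 13 of the 18, while that of Esrra held in all 18. Ppara, named after its value was seen, was also widely spread among the controls and was not called, at 416 ± 246 CPM there and 557 ± 76.2 CPM in knockouts (log2 fold change 0.42, edgeR adjusted p = 0.401).

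Of 12 genes that are known to respond with Pdk4 to fatty acids and PPAR receptors, 8 fell and 1 rose (median -0.49), and Pdk4 itself was not called. Slc25a20, the carnitine carrier, fell by 0.66, Plin5, a lipid droplet protein, fell by 0.49, and Acadm, an acyl-CoA dehydrogenase, fell from 3175 ± 605 to 1583 ± 71.8 CPM. The riser was Cpt1a, a carnitine palmitoyltransferase, at 19.3 ± 5.38 and 27.9 ± 2.06 CPM (log2 fold change 0.53, edgeR adjusted p = 0.0405), named after its value was seen. Its call ended in 7 of 8 fits with 1 library left out, those without control 514, 517 or 518 or any knockout, and with the muscle score.

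**Figure D4:**
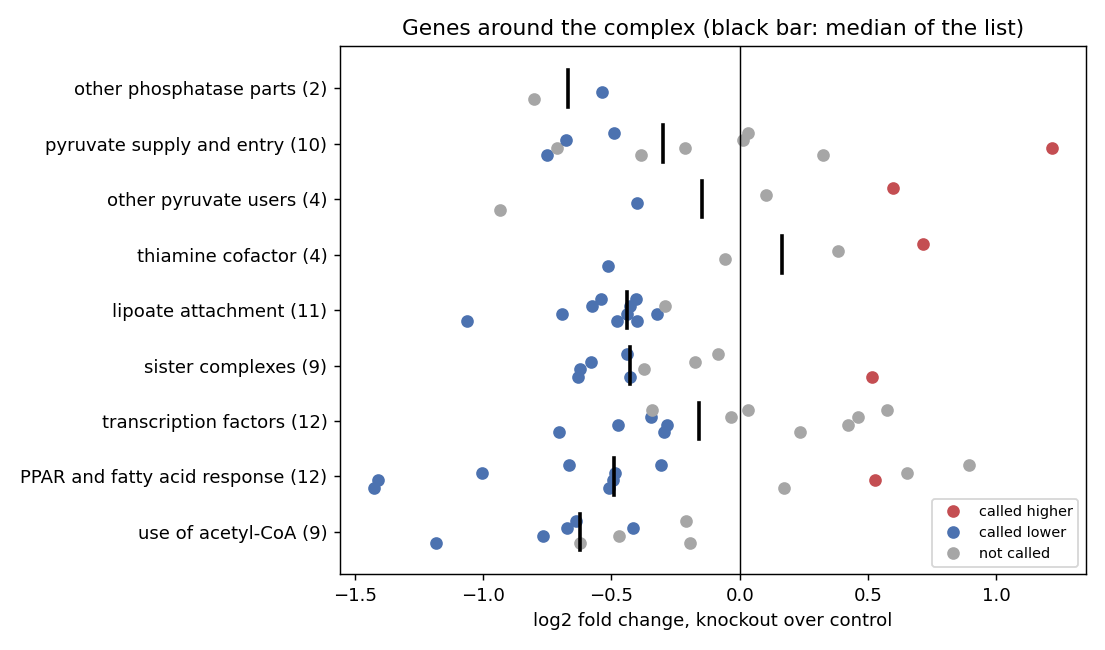
Log2 fold change (knockout over control) of the 73 tested genes of the 9 lists, one point per gene, coloured by the edgeR call, with the number tested in brackets and the list's median as a black bar. In lipoate attachment 10 of 11 points are called lower, and the 5 genes called higher lie in 5 different lists.

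**Figure D5:**
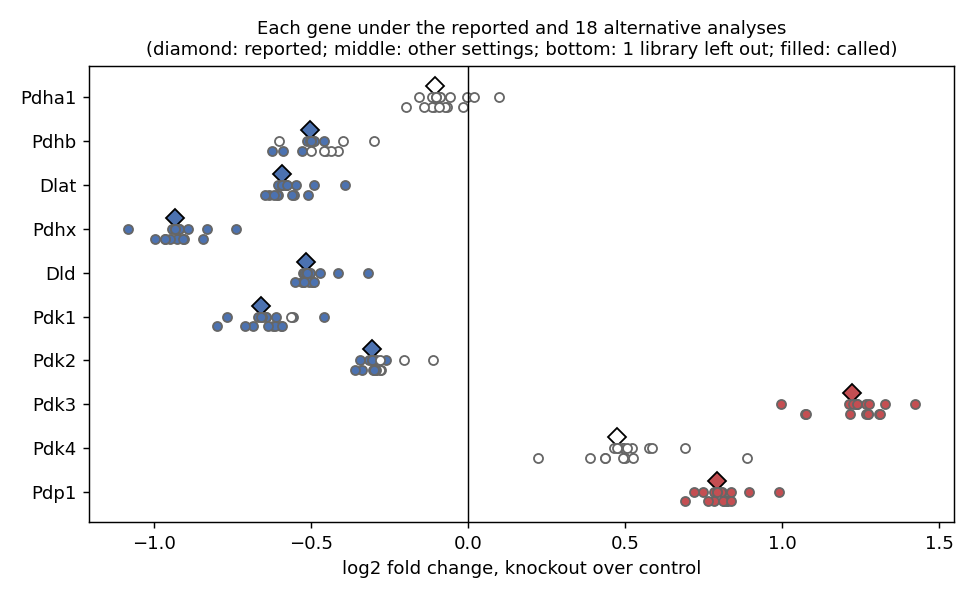
Log2 fold change of each of the 10 genes as reported (diamond) and under 18 alternative analyses, with filled symbols where the gene was called. Dlat, Pdhx, Dld, Pdk3 and Pdp1 were called in all 18, Pdhb in 10, Pdk2 in 14 and Pdk1 in 17, and Pdha1 and Pdk4 in none.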

How the data were processed

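RNA of brown adipose tissue from 8 mice had been extracted with Trizol and sequenced, per the labels' protocols. The submitters' processing notes name TopHat2 version 2, HOMER, edgeR and the build mm10. The deposited estimated counts were made with HOMER's analyzeRepeats.pl without regard to strand, over the exons of each transcript (per the file headers), and 36.9% of values are not whole (steps of 0.5), so they were rounded. The second table was used for the authors' fold (a ratio), p-value and false discovery rate, and log2 fold change, per the file headers; its scaled counts, a signal the authors made by bringing libraries to equal totals, were not used.

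Of 30521 rows, 829 name no gene (0.0608% to 0.0824% of counts). The row with the highest total stood for a symbol. Genes kept by filterByExpr (minimum count 10) were tested, knockout against control, with edgeR 4.0.16 in R 4.3.3 (TMM factors, quasi-likelihood, two-sided, Benjamini-Hochberg over all genes tested). The test was checked on simulated counts. The standard error is the log2 fold change over the square root of F, an approximation, and the 95% interval rests on it. No pair of replicates matched within sampling noise (lowest chi-square per degree of freedom 12.4). The labels name no batch and say no more on how mice were kept, so the p-values cover variation among these libraries, which may be technical. The members and lists were chosen with earlier results of these data known. Named genes were the 10 members, Kdm1a, Ucp1, up to 3 called genes of smallest p in each pathway list, and the 3 closest profiles to the 2 members with the largest called changes. Alternatives were other scalings, filters and rounding, DESeq2 1.42.0, limma 3.58.1 (voom with sample weights), summed rows, a muscle score (mean log2 CPM of 15 markers) as covariate, and leaving out each library. The result for a listed gene is not reported here.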

Additional observations from a re-analysis of the deposited data

Results flagged for a closer look

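Of 24 groups of 4 libraries checked for 1 library far from the others (the 10 genes, Kdm1a and Ucp1 in each genotype), 1 stood out, about what chance gives at 1 in 20. Dld in control 517 was at 1494 CPM, where the other controls lay between 1394 and 1410 CPM, a gap of 0.846 of the group's range. Leaving out any library kept Dld lower and called, at -0.55 to -0.49 on the log2 scale.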

How the results depend on the processing

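No paired analysis was made, because the labels name no pairs and do not say whether libraries share litters or days. Under all 18 alternatives 2 of the 10 genes, Pdk3 and Pdp1, were called higher, and Dlat, Pdhx and Dld lower. The number called lower was 6, and 4 to 6 with 1 library left out; with the muscle score as a covariate it was 3, where Pdhb (-0.60), Pdk1 (-0.57) and Pdk2 (-0.28) were not called, over all genes 1409 were called higher, and 2 of the pathway genes were. Upper quartile factors gave 1625 lower genes against 2682, 8 pathway genes higher against 5, Pdhb -0.40 and Pdk2 -0.21, both uncalled. Library sizes alone gave 4077 genes higher against 2189 and 930 lower, 12 pathway genes higher and 25 lower, Pdhb -0.30 and Pdk2 -0.11, both uncalled; relative to the median of all genes, Pdhb was then at -0.49 and Pdk2 at -0.30. With 1 library left out, Pdhb ranged from -0.63 to -0.42, Pdk2 from -0.36 to -0.28, Pdk4 from 0.22 to 0.89, and pathway genes called higher from 3 to 8 (8 without control 514, 3 without knockout 515 or knockout 516). The cause of these shifts was not tested. The mean share of Pdk4 in the controls' kinase sum ranged from 52.1% to 64.2% with 1 control left out. Pdk3 had the fewest counts of the 10 genes, 28 to 134.5 per library, and Pdk4 the widest interval.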
